A study of Gallus gallus with 16 samples.

Results

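Pineal glands of chicks that were lit during the last 2 h of the night were compared with glands of chicks left in the dark until the same hour. The comparison rests on 8 of the 16 arrays of the series, chosen by their labels alone: 4 RNA pools of late-night light and 4 pools of ZT0 dark. All birds were male Rhode Island Red chicks aged 1 week and lived in 12 h light and 12 h dark a day. The late-night light birds had light from ZT22 to ZT24 on the last day, while the ZT0 dark birds had none in that night, where ZT0 is the hour at which the lights of the daily cycle come on. Birds of both groups were killed at ZT0, each group counted 25 birds, and a pool held 5 to 6 glands. Pools therefore hold different birds, and the p-values measure the spread between pools of 1 experiment. In a pair of groups with fewer pools, used at the end, 1 had its light period extended from ZT12 to ZT14 (early-night light, 2 pools). The other was in the dark until ZT14 (2 pools). Birds were put into groups at random, and the labels name no drug, surgery or genetic change in any group.

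The chicken pineal gland is a photoreceptive endocrine organ: its cells carry their own opsins and their own circadian clock and release melatonin at night. Light reaching the gland at night acutely lowers melatonin release and can shift the clock, and the direction of the shift depends on the hour. Light at night has also been described as acting on genes of protein folding, the heat shock response and sterol synthesis in the chick pineal, so those pathways are given first among the functions. All gene lists and their members were chosen with earlier results of these data known, so the leaning of a list may partly come from the choice. BiP and its partners fold proteins inside the endoplasmic reticulum (ER), heat shock chaperones do so mainly in the cytosol, and sterol enzymes build cholesterol from small carbon units.

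Each array set the cDNA of 1 pool against a common mixture of all 16 pools, so a value is a log ratio, taken as log2, and holds no absolute level. The sources used here do not state which channel is the numerator. "Higher" and "lower" therefore refer to the deposited ratio: were the pool the denominator, every sign would turn, folds would invert, and counts of higher and lower genes would change places. Of 15609 probes that are no control spots, 9628 had a gene symbol, and averaging probes of 1 symbol left 12690 genes or unnamed probes for testing, 12607 of them measured on all 8 arrays. The arrays fall into 2 runs of array numbers in the labels, called here the first series (light pools 1, 2 and 3, dark pools 1 and 2) and the second series (light pool 4, dark pools 3 and 4). Arrays of the second series correlated with each other at 0.484 to 0.557 over genes, those of the first at 0.0393 to 0.413, and arrays of different series at 0.0605 to 0.286. Differences within each series are given below for only some genes and lists, and genes without such values can also depart from the whole. Of 10 genes listed as marks of pineal identity, 3 were measured and named (TPH1, OTX2 and PAX6), and a ratio cannot show whether a marker is present.

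No gene passed the test of late-night light against ZT0 dark. In limma, with Benjamini-Hochberg adjustment over all genes, 0 of 12690 (0%) were called at an adjusted p under 0.05, and the smallest adjusted p was 0.304, shared by 6 genes. Before adjustment 833 genes (6.56%) had a p under 0.05, 423 higher (3.33%) and 410 lower (3.23%) in light. In 300 genes (2.38%) all 4 light pools lay above all 4 dark pools, and in 276 (2.19%) all lay below, 576 genes (4.57%) in all. The median difference over all genes was -0.0040, 49.1% of the differences were positive, and 73 genes differed by more than 1 in either direction. All values below are thus descriptions of pools, with the adjusted p beside the main ones.

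Among genes with a symbol whose groups did not overlap, NWD2, which codes for a protein with NACHT and WD repeat domains, had the smallest p with a higher ratio. Its ratios were 0.39, 0.78, 0.87 and 0.56 in light pools 1 to 4, against -0.69, -0.44, -0.55 and -0.13 in dark pools 1 to 4. Every light pool was above 0 and every dark pool below it, with dark pool 4 the nearest to 0 among the dark pools. The difference was 1.10 ± 0.16 (SE), a fold of 2.14, with an adjusted p of 0.304.

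LONRF1, a protein with a RING finger as ubiquitin ligases have, followed. Light pools had 0.50, 0.41, 0.60 and 0.67, against -0.33, -0.34, -0.13 and -0.68 in dark pools. The light pools were close together, the dark pools spread more, and no pool crossed to the other side of 0. The difference was 0.91 ± 0.14 (adjusted p 0.304), with 0.84 in the first series and 1.07 in the second.

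HSPA5, the ER chaperone BiP, had ratios of 0.62, 0.55, 0.79 and 0.97 in light pools, against -0.20, 0.05, 0.17 and -0.10 in dark pools. The groups did not overlap, light pools 3 and 4 were the highest, and the difference was 0.75 ± 0.14 (adjusted p 0.541). The mean hides a disagreement between its 2 probes. One probe ran from 1.08 to 1.76 over light pools and from -0.50 to 0.36 over dark pools, a difference of 1.39. The other ran from -0.18 to 0.60 over light pools and from -0.17 to 0.10 over dark pools, a difference of 0.12, and its groups overlapped.

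SH3GL2 (endophilin A1, which bends membrane in synaptic vesicle recycling) had 0.90, 0.49, 0.47 and 0.48 in light pools, against 0.04, -0.22, -0.25 and -0.19 in dark pools. Pool 1 was the highest of its group in both. The difference was 0.74 ± 0.14 (adjusted p 0.541). CRIM1, a membrane protein that binds bone morphogenetic proteins, had 0.32, 0.07, 0.62 and 0.36 in light pools, against -0.43, -0.21, -0.50 and -0.32 in dark pools. Light pool 2 came nearest to the dark pools without reaching them, and the 2 probes of CRIM1 gave 0.74 and 0.67.

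The other 9 leading genes with higher ratios had differences of 0.44 to 0.66. Several act at the cell surface: FZD3 is a Wnt receptor (0.59 ± 0.12), CLDN15 a tight junction protein (0.60 ± 0.13), MEP1A a subunit of the metalloprotease meprin (0.60 ± 0.13), and GRIK1 a kainate-type glutamate receptor subunit (0.57 ± 0.14). NT5E, the ectoenzyme that makes adenosine from AMP outside the cell, had 0.31, 0.22, 0.70 and 0.55 in light pools, against -0.09, -0.16, 0.03 and -0.41 in dark pools. Inside the cell act USP31, which removes ubiquitin, TRMT2A, a tRNA methyltransferase, BLVRA, which reduces biliverdin to bilirubin, and SDF2L1, a partner of BiP. Their differences were 0.56 ± 0.13 for USP31, 0.66 ± 0.15 for TRMT2A and 0.44 ± 0.11 for BLVRA. In each probe of USP31 taken alone the groups overlapped, and only the average of its probes did not. For TRMT2A the first series gave 0.91 and the second 0.30.

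On the lower side stood BDNF, a neurotrophin whose gene is induced by calcium and cAMP in neurons. Its ratios were -1.14, -1.12, -0.95 and -1.30 in light pools, against -0.044, -0.45, -0.0027 and -0.36 in dark pools. The light pools lay within a narrow band, and every dark pool was above it. The difference was -0.91 ± 0.14 (a fold of 0.53, adjusted p 0.304), with -0.82 in the first series and -1.12 in the second.

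HBBA, a beta-type globin of red blood cells, had -0.52, -0.64, -0.93 and -0.50 in light pools, against 0.55, 0.22, 0.34 and 1.01 in dark pools. All light pools were below 0 and all dark pools above it, with dark pool 4 the highest. The difference was -1.18 ± 0.19 (a fold of 0.44, adjusted p 0.304). In RNA of whole glands, fewer cells of a type and less RNA per cell cannot be told apart. The erythroid marker list, which holds HBBA, is given with the other cell types below.

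RAD54L, a DNA repair protein of homologous recombination, had -0.54, -0.73, -0.59 and -0.70 in light pools, against 0.31, -0.08, 0.28 and -0.20 in dark pools. ETV3, a transcription factor of the ETS family, had -0.08, -0.26, -0.26 and -0.03 in light pools, against 0.61, 0.18, 0.89 and 0.81 in dark pools. In both genes the light pools were closer to each other than the dark pools were, and the differences were -0.72 ± 0.14 and -0.78 ± 0.17 (adjusted p 0.739 for each). FAM20C, a kinase of secreted proteins in the Golgi, had a difference of -0.52 ± 0.12, with -0.52 in the first series and -0.50 in the second.

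The remaining 9 leading genes with lower ratios had differences of -1.12 to -0.47. They include KCNMB4, an accessory subunit of large-conductance potassium channels (-0.75 ± 0.17), SLC8B1, the sodium and calcium exchanger of mitochondria (-0.62 ± 0.15), and NDUFB2, a subunit of respiratory complex I (-0.81 ± 0.20). The 2 probes of SLC8B1 gave -0.17 and -1.08, and in each taken alone the groups overlapped. Signalling and surface proteins in the set were EREG, a ligand of the epidermal growth factor receptor (-0.58 ± 0.15), the adaptor SHF (-0.51 ± 0.13), and LGALS1A, a galectin (-0.72 ± 0.17). CD40LG, a ligand carried by helper T cells, had -0.31, -0.23, -1.16 and -0.90 in light pools, against 0.29, 0.43, -0.06 and 1.20 in dark pools. Its light pools parted into a higher and a lower pair, and dark pool 4 was the highest. The difference for PTRHD1 was -0.47 ± 0.12, and for OLFML2B, an extracellular olfactomedin-like protein, -0.55 ± 0.14.

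**Figure D1:**
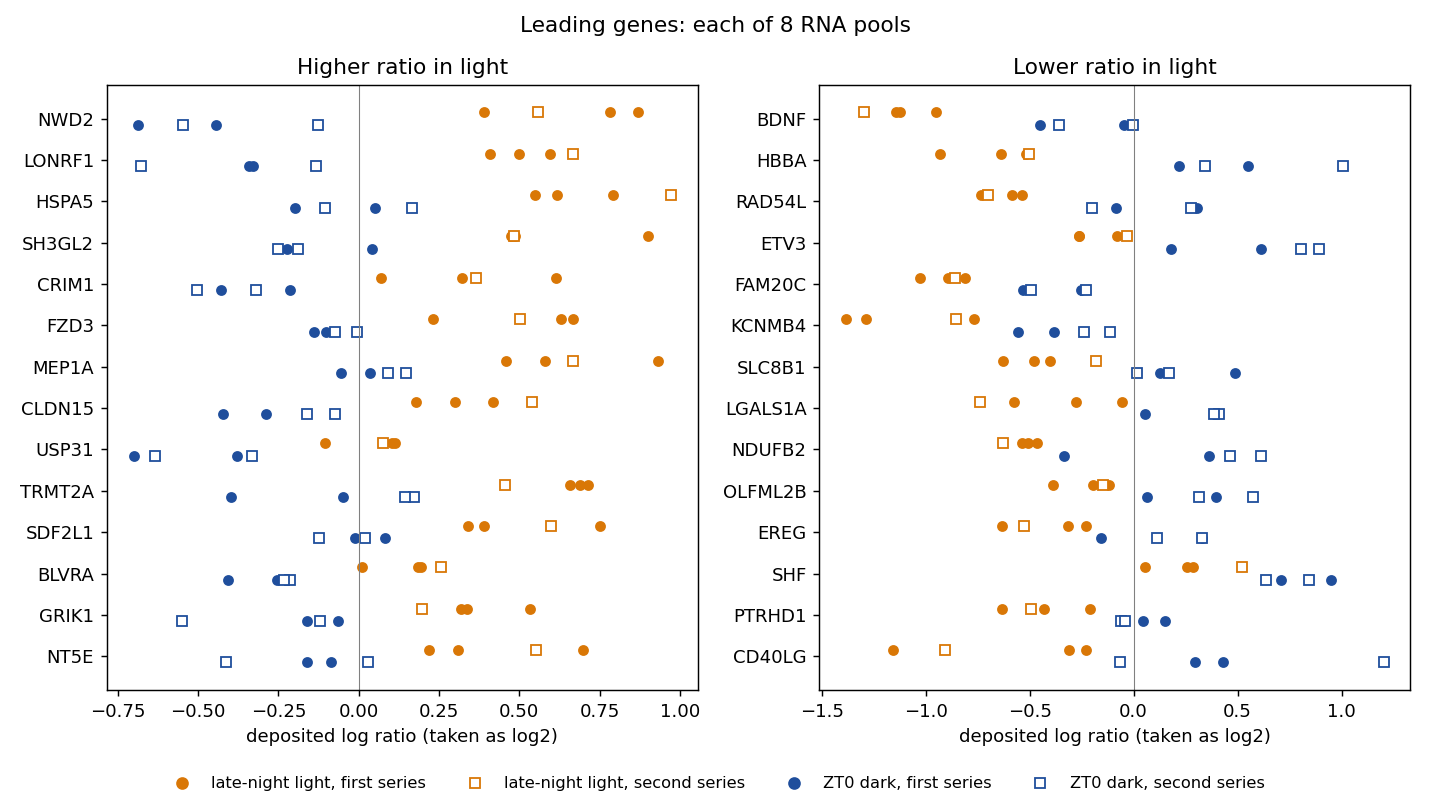
Deposited log ratio (taken as log2) of each RNA pool for the 14 genes with a symbol and the smallest p in each direction, among genes whose groups do not overlap. Orange points are light pools (upper of each pair) and blue points dark pools (lower), filled circles are the first array series and open squares the second. The genes were picked for not overlapping, so the separation is given by the choice, and the widest separation in the right panel is that of HBBA (-1.18).

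Genes of protein folding in the ER leaned towards higher ratios in light, in a list chosen with earlier results of these data known. Of 36 measured members 26 had a higher ratio in light, with a median difference of 0.13 beside -0.0040 over all genes. All 4 light pools were above all 4 dark pools in 5 members (13.9%, against 2.38% of all genes measured on all 8 arrays), and none showed the opposite order. No other functional list had as many higher members without overlap, but the lists differ in size, and the share was larger in the core clock list (20%). These 5 were HSPA5, SDF2L1, TXNDC11, PDIA4 and CANX, and none had an adjusted p under 0.05. The mean ratio of the list was 0.13, 0.11, 0.24 and 0.16 in light pools, against 0.029, 0.016, -0.0031 and -0.067 in dark pools, so that the groups did not overlap in the mean either.

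SDF2L1, which keeps BiP in its folding complex, had 0.34, 0.39, 0.75 and 0.60 in light pools, against 0.08, -0.01, 0.02 and -0.12 in dark pools. Light pools 3 and 4 were the highest, and the difference was 0.53 ± 0.13 (adjusted p 0.739). Its 2 probes gave 0.43 and 0.63, neither with an overlap. PDIA4, a disulfide isomerase of the ER, had 0.21, 0.31, 0.60 and 0.53 in light pools, against -0.0036, 0.084, -0.092 and -0.069 in dark pools. The same 2 light pools were the highest, and each of its 4 probes was higher in light, by 0.26 to 0.59.

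TXNDC11, a thioredoxin-like protein of the ER, had 0.24, 0.37, 0.75 and 0.78 in light pools, against -0.18, 0.09, -0.07 and 0.02 in dark pools. CANX, the membrane lectin calnexin that holds unfolded glycoproteins, had 0.79, 0.22, 1.32 and 0.51 in light pools, against -0.16, 0.09, 0.0055 and 0.05 in dark pools. Calnexin's light pools were spread far more widely than its dark pools. The differences were 0.57 ± 0.15 for TXNDC11 and 0.71 ± 0.22 for CANX (adjusted p 0.739 for each). SIL1, which exchanges the nucleotide of BiP, had a difference of similar size (0.57 ± 0.25), with dark pool 4 at -1.07 and the other dark pools between -0.16 and 0.03. Without dark pool 4 it was 0.31.

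Most other ER chaperones and regulators of the pathway differed less. Of the 10 members with a lower ratio, QSOX1 was the lowest at -0.43 ± 0.25. The disulfide isomerase P4HB had -0.16 ± 0.13, with its probes at 0.16 and -0.49. HYOU1, a large partner of BiP, had a difference of 0.30 ± 0.17, and HSP90B1, the ER form of HSP90, one of 0.15 ± 0.18 with overlap in both. The probes of HYOU1 ranged from -0.27 to 0.98, and the probe at 0.98 had a dark pool as low as -3.06. For HSP90B1 the first series gave -0.11 and the second 0.54. XBP1, the transcription factor of the unfolded protein response that is switched on by splicing, had -0.02 ± 0.18, with its 3 probes at 0.38, -0.47 and 0.04. The probes measured here are not stated to tell spliced from unspliced XBP1. ATF4, the factor of the PERK branch, had 0.11 ± 0.11, and HERPUD1, a protein of ER-associated degradation, -0.11 ± 0.13. The signs of XBP1 and HERPUD1 turned under quantile normalization and with scaled arrays.

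Genes that carry proteins into and out of the ER leaned the same way with smaller values. Of 44 members of the translocation and export list 26 were higher, with a median of 0.07, and 2 did not overlap (4.55%, against 2.38%), both higher. The median was 0.03 without light pool 4 or dark pool 2, 0.04 without light pool 3, and 0.14 in the second series alone. DDOST, a subunit of oligosaccharyltransferase, had 0.28, -0.02, 0.44 and 0.12 in light pools, against -0.09, -0.10, -0.03 and -0.11 in dark pools. SEC63, a helper of the translocation channel, had a difference of 0.33 ± 0.15, the same as KDELR3, a receptor that returns escaped ER proteins (0.33 ± 0.15, groups overlapping). SEC23B, a coat protein of vesicles leaving the ER, had 0.42 ± 0.17, and its highest light pools were 3 and 4, as for HSPA5, SDF2L1, PDIA4 and TXNDC11. Ratios over all probes also spread more in light pools 3 and 4 (SD 0.480 and 0.514) than in light pools 1 and 2 (0.338 and 0.325). The cause of the shared order of pools was not tested.

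The heat shock list, which is not confined to the cytosol, had 26 of 40 members with a higher ratio and a median of 0.08. In 3 members (7.50%, against 2.38%) the light pools were all above the dark pools, and in none all below. The mean ratio of the list was 0.15, 0.16, 0.21 and 0.23 in light pools, against 0.092, 0.024, 0.038 and 0.084 in dark pools. The groups were separate in this mean, and dark pool 1 came nearest to the light pools.

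SERPINH1 is a collagen chaperone of the ER whose gene is a target of heat shock factor. It had 0.73, 0.71, 1.01 and 0.61 in light pools, against -0.12, 0.14, 0.52 and 0.19 in dark pools. Light pool 4 and dark pool 3 came closest. The difference was 0.58 ± 0.16 (adjusted p 0.739), with 0.81 in the first series and 0.25 in the second. TCP1, a subunit of the ring-shaped cytosolic chaperonin, had 0.40, 0.50, 0.82 and 0.45 in light pools, against 0.05, 0.09, 0.29 and 0.02 in dark pools, and both of its probes gave 0.43.

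DNAJA1, a J-domain partner of HSP70, had a smaller and tighter difference of 0.27 ± 0.10, without overlap. CHORDC1, an HSP90 co-chaperone, had 0.63, 0.57, 0.54 and -0.10 in light pools, against 0.08, 0.06, -0.37 and -0.27 in dark pools. Light pool 4 fell among the dark pools and the other light pools stayed above them. FKBP4, another HSP90 partner, had 0.71 ± 0.28, with 1.25 in the first series and -0.07 in the second, and its 2 probes gave 0.10 and 1.24. BAG3, a co-chaperone of HSP70, had 0.36 ± 0.17, and the ubiquitin ligase STUB1 had 0.82 ± 0.47, with dark pool 4 at -2.02, and 0.26 without that pool. HSPA8, the constitutive cytosolic HSP70, had 0.08 ± 0.15, and its 4 probes disagreed in sign (0.42, 0.42, -0.34 and -0.17), and its difference was below 0 under quantile normalization and with scaled arrays.

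**Figure D2:**
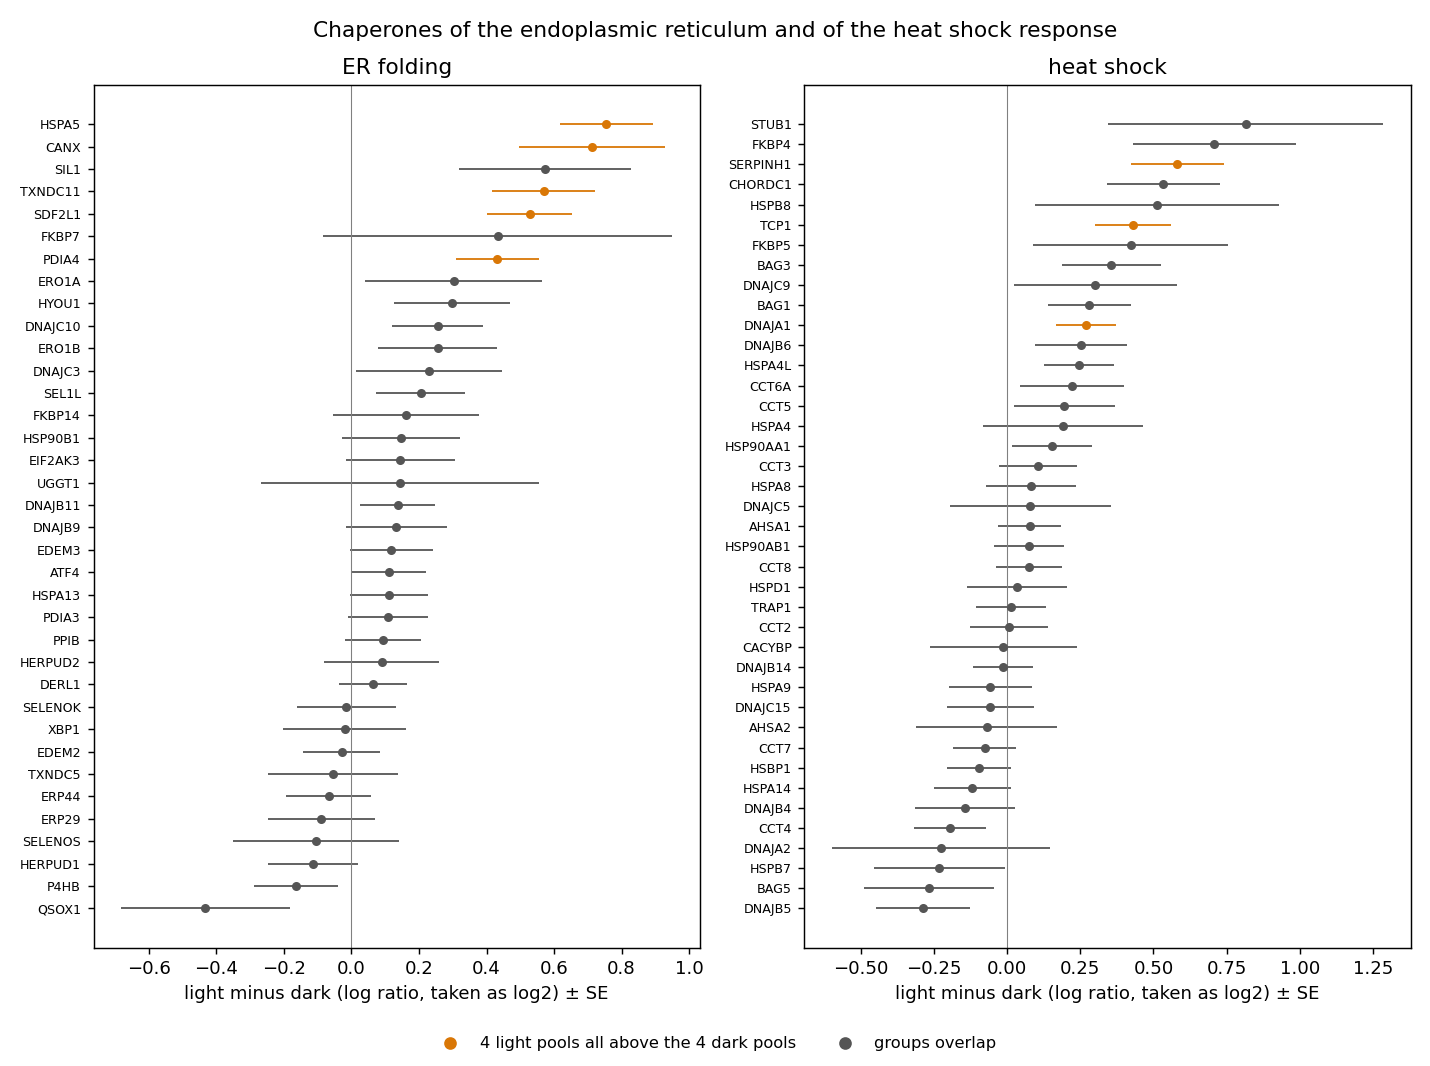
Difference of late-night light minus ZT0 dark (log ratio, taken as log2) with its SE for every measured member of the ER folding list (left, 36 genes) and the heat shock list (right, 40 genes), ordered by size. Orange points are genes with all 4 light pools above all 4 dark pools, 5 on the left and 3 on the right, and grey points are genes whose groups overlap.

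Sterol synthesis showed no separated gene. Of 16 measured members 11 were higher in light, with a median of 0.06, none had an unadjusted p under 0.05 and none was free of overlap. SQLE, which makes squalene epoxide at a rate-limiting step, had 0.40, 0.44, 0.33 and -0.26 in light pools, against 0.12, -0.09, -0.27 and -0.06 in dark pools. FDFT1, which makes squalene, had 0.27, 0.28, 0.05 and -0.30 in light pools, against -0.13, -0.40, -0.18 and -0.09 in dark pools. In both enzymes light pools 1 to 3 were above the dark pools and light pool 4 was within the range of the dark pools. Their first-series differences were 0.38 and 0.47, and their second-series differences -0.10 and -0.16. LBR, a sterol reductase of the nuclear envelope, had 0.31 ± 0.16, and its probes gave 0.59 and 0.04. INSIG1, which holds the sterol sensor back in the ER, had 0.27 ± 0.22. That difference was 0.08 without light pool 3 and 0.44 without light pool 1.

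The fatty acid synthesis list, which also holds genes of fatty acid oxidation, had a median of 0.14. Of its members 12 of 19 were higher and 1 was without overlap (5.26%, against 2.38%). That gene was HADHB, a subunit of the enzyme of mitochondrial fatty acid oxidation, with 0.30, 0.29, 0.51 and 0.34 in light pools, against 0.11, 0.02, 0.04 and 0.08 in dark pools. The list's mean ratio lay between 0.13 and 0.15 in the light pools and between -0.12 and 0.11 in the dark pools. With the array series as a block its median was 0.05. Of the 7 neurosteroid genes 4 were higher, with a median of 0.10, and none was free of overlap. HSD17B1, which interconverts oestrone and oestradiol, had a difference of 0.37 ± 0.15.

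Genes of the core clock list were on both sides of 0. Of 15 measured members 10 were higher, with a median of 0.06, and 3 were without overlap, all higher (20%, against 2.38%). The list is not confined to core clock genes. It also holds the kinase genes CSNK2A1 and PRKAA1, the F-box proteins BTRC and FBXW11, and TIPIN, a replication fork protein. Its median is the value of FBXW11, and CSNK2A1 is among the 3 without overlap. The median was -0.01 without dark pool 1 and 0.02 without light pool 4. RORA, a nuclear receptor that activates BMAL1, had 0.02, 0.04, 0.64 and 0.20 in light pools, against -0.30, -0.07, -0.23 and -0.33 in dark pools. CRY2, a repressor of the clock, had 0.88, 0.02, 0.38 and 0.19 in light pools, against -0.03, 0.02, -0.13 and -0.34 in dark pools. In CRY2 light pool 2 and dark pool 2 had almost the same ratio, so the separation there hangs on that pool. The differences were 0.46 ± 0.16 for RORA and 0.49 ± 0.19 for CRY2 (adjusted p 0.739 for each), and CSNK2A1, a kinase subunit, had 0.15 ± 0.10. Each probe of CSNK2A1 taken alone had overlapping groups, and only the average of its probes did not.

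CRY1 was the clock gene with the largest difference and the least certain one. It had -0.13, -0.27, -0.23 and -1.81 in light pools, against -0.21, -0.01, -2.83 and -2.46 in dark pools. The 3 low values are the 3 arrays of the second series, and the 5 high values the 5 arrays of the first. Its difference was 0.77 ± 0.69 over all pools, -0.10 in the first series and 0.83 in the second. PER3 and BHLHE40, a period protein and a light-responsive repressor, had -0.28 ± 0.18 and -0.28 ± 0.16 with overlapping groups. CLOCK itself had 0.0014 ± 0.11.

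The melatonin synthesis list showed no separation: 4 of 9 members were higher, the median was -0.07, and 0 had an unadjusted p under 0.05. Only TPH1 among them is an enzyme of the pathway itself. The others are genes of the cofactor tetrahydrobiopterin, the adaptor proteins YWHAE and YWHAZ, and MAOA. TPH1, tryptophan hydroxylase, whose RNA is rhythmic in the chick pineal, had -0.62, -0.81, -0.65 and -0.77 in light pools, against -0.52, -1.18, -0.37 and -0.90 in dark pools. The light pools all lay inside the range of the dark pools. GCHFR, which regulates synthesis of the cofactor tetrahydrobiopterin, had -0.32 ± 0.19, and MAOA, which degrades serotonin, -0.20 ± 0.12. AANAT and ASMT, the last enzymes of the pathway, were not analysed here.

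The 11 phototransduction and retinoid genes were similar, with 7 higher, a median of 0.04 and none without overlap. ABCA4, the retinoid flippase of photoreceptors, had -0.76, -0.72, -0.81 and -0.57 in light pools, against -0.49, -0.54, -0.53 and -0.59 in dark pools. Only light pool 4 lay among the dark pools, and the difference was -0.17 ± 0.10. Of 9 members of the pineal transcription factor list 5 were higher, with a median of 0.11. The list is not confined to factors that pattern the pineal and retina. Its median is the value of ATF4, which is also in the ER folding list. MITF, the factor of pigment cells, had 0.04, 0.24, 0.36 and 0.08 in light pools, against -0.14, -0.08, -0.10 and -0.32 in dark pools. It was the 1 member without overlap (11.1%, against 2.38%). The median of this list was -0.31 in the second series alone and -0.06 without light pool 1.

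Genes that nerve activity or growth factors induce were higher and lower in similar numbers. Of 19 members 8 were higher, with a median of -0.06. BDNF was the 1 member lower without overlap, and CCN2, a secreted matrix protein, the 1 member higher. Each is a share of 5.26%, against 2.19% of all genes lower and 2.38% higher. CCN2 had 0.31, 0.52, 0.28 and 0.25 in light pools, against 0.23, 0.10, -0.20 and -0.17 in dark pools. Light pool 4 and dark pool 1 nearly met. Each probe of CCN2 taken alone had overlapping groups, and only the average of its probes did not. DUSP4, a phosphatase that switches off ERK, had 0.40 ± 0.18, and MYCN 0.34 ± 0.15, whereas DUSP10, a phosphatase of stress kinases, had -0.31 ± 0.14.

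In cAMP and calcium signalling 21 of 33 members were higher, with a median of 0.07, and none was free of overlap. PDE4D, which degrades cAMP, had 0.58, 0.06, 0.51 and 0.77 in light pools, against -0.04, -0.16, 0.08 and -0.03 in dark pools. Light pool 2 was just below dark pool 3 and the other light pools were well above. The calcium-dependent kinase CAMK1D had 0.37 ± 0.15. ADCY8, an adenylyl cyclase that calcium activates, had -0.51 ± 0.21, with -0.13 in the first series and -1.10 in the second.

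Receptors for transmitters and neuropeptides had a median of -0.10 (19 of 50 higher), with 2 members higher and 1 lower without overlap (4% and 2%, against 2.38% and 2.19%). The median was -0.04 without dark pool 1 and -0.17 without dark pool 3. Both higher members are kainate receptor subunits, GRIK1 as above and GRIK4. GRIK4 had 0.0039, 0.12, 0.30 and 0.23 in light pools, against -0.03, -0.17, -0.22 and -0.20 in dark pools. The lower member was NMB, the neuropeptide neuromedin B, which is in the list though it is no receptor. It had -0.27, -0.31, -0.31 and -0.59 in light pools, against 0.34, 0.09, -0.23 and -0.05 in dark pools. The serotonin receptor HTR7 had -0.42 ± 0.15 and the nicotinic subunit CHRNA4 -0.50 ± 0.20, each with overlap.

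Ion channel genes had a median of -0.04 (32 of 70 higher). The 3 members without overlap were all lower (4.29%, against 2.19%), among them KCNMB4 and KCNJ4, an inward rectifier potassium channel. KCNJ4 had 0.35, 0.07, -0.012 and 0.32 in light pools, against 1.33, 0.51, 0.49 and 1.36 in dark pools, and its difference was -0.74 ± 0.23. CACNG3, which escorts AMPA receptors to the membrane, had -0.47 ± 0.17. Solute carriers (63 of 113 higher, median 0.03) and vesicle traffic genes (52 of 97 higher, median 0.03) stayed near the median of all genes, and their shares without overlap were 1.79% higher and 1.79% lower, and 1.03% higher and 2.06% lower. SLC8B1 and SH3GL2, described above, belong to these lists.

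Matrix genes and proteases spread in both directions. Of 69 members 29 were higher, with a median of -0.09, 3 were higher and 5 lower without overlap (4.48% and 7.46%, against 2.38% and 2.19%). The median was -0.04 without dark pool 1 or dark pool 3, -0.05 without light pool 3, and -0.04 under quantile normalization. VTN, the adhesive protein vitronectin, had 0.15, 0.16, 0.60 and 0.31 in light pools, against -0.32, -0.27, -0.12 and -0.16 in dark pools, a difference of 0.52 ± 0.13. COL3A1, a fibrillar collagen, had 0.04, -0.43, -0.30 and -0.62 in light pools, against 0.30, 0.05, 0.28 and 0.47 in dark pools, a difference of -0.60 ± 0.16. Light pool 1 and dark pool 2 of COL3A1 nearly met. MMP13, a collagenase, had -1.12, -0.69, -0.46 and -0.89 in light pools, against 1.39, -0.53, 0.58 and 1.29 in dark pools. Its dark pool 2 lay among the light pools, and the difference was -1.47 ± 0.39.

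Ribosomal proteins of the cytosol were lower in most members: 6 of 34 were higher, with a median of -0.11. The mean ratio of the list was 0.00027, 0.032, -0.22 and 0.033 in light pools, against 0.044, 0.010, 0.096 and 0.14 in dark pools. Light pool 3 stood far below the other pools, and without it the median was -0.06. RPL22 had -0.41 ± 0.17 with overlap, and RPL27, the 1 member without (2.94%, against 2.19%), -0.27 ± 0.16. In each probe of RPL27 taken alone the groups overlapped. The ribosome of mitochondria (14 of 30 higher, median -0.01) and the translation factors (22 of 44 higher, median 0.0039) stayed near 0.

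Respiratory chain and ATP synthase genes had 11 of 34 members higher and a median of -0.07, which was -0.0029 without light pool 3. NDUFB2 was the 1 member without overlap (3.03%, against 2.19%). It had -0.46, -0.54, -0.51 and -0.63 in light pools, against 0.36, -0.34, 0.46 and 0.61 in dark pools. Dark pool 2 was the lowest of the dark pools by far. ATP5C1, a subunit of ATP synthase, had -0.41 ± 0.17 (-0.68 in the first series and 0.16 in the second). NDUFA10, a subunit of the same complex as NDUFB2, had 0.49 ± 0.21. Glycolysis genes had 13 of 22 higher and a median of 0.03.

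Antioxidant genes had 14 of 20 members higher, a median of 0.08, and 1 member without overlap on each side (5% each, against 2.38% higher and 2.19% lower). GCLC, the enzyme that starts glutathione synthesis, had 0.21, 0.08, 0.48 and 0.06 in light pools, against -0.13, -0.15, 0.0051 and -0.07 in dark pools. PRDX4, the peroxiredoxin of the ER, differed in sign from most ER folding genes, with -0.43, -0.48, -0.57 and -0.18 in light pools, against -0.036, 0.14, -0.054 and 0.038 in dark pools. Its difference was -0.44 ± 0.12, and its 2 probes gave -0.19 and -0.68.

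Of 59 splicing genes 28 were higher, with a median of -0.02, and the 3 members without overlap were all higher (5.08%, against 2.38%). They were SRRM1, a nuclear matrix splicing coactivator (0.46 ± 0.13), PTBP2, the neuronal polypyrimidine tract binding protein (0.47 ± 0.15), and SYF2 (0.73 ± 0.25). SYF2 had 1.19 in light pool 3 and 0.20 to 0.30 in the other light pools. CWC15, a spliceosome protein, had -0.87 ± 0.36. The proteasome and ubiquitin list had 25 of 47 higher and a median of 0.0040, and UBE2G2, a conjugating enzyme of ER-associated degradation, had -0.46 ± 0.13 with -0.28, -0.34, -0.50 and -0.42 in light pools, against -0.03, -0.10, 0.07 and 0.36 in dark pools.

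Cell division and replication genes had 33 of 76 higher and a median of -0.02, and 3 members (4.00%, against 2.19%) were lower without overlap. TOP2A, the topoisomerase of dividing cells, had -0.19, -0.16, -0.29 and -0.06 in light pools, against 0.18, 0.24, -0.06 and 0.61 in dark pools. Light pool 4 and dark pool 3 nearly met, and in each probe of TOP2A taken alone the groups overlapped. CCND3, a cyclin of the first gap phase, had -0.36 ± 0.12, with its 2 probes at -0.10 and -0.62, and CCNE2, a cyclin of entry into replication, -0.65 ± 0.23 with overlap. Interferon response genes (10 of 22 higher, median -0.03) and thyroid and photoperiod genes (3 of 8 higher, median -0.03) held no member without overlap. IL6, a cytokine of the interferon response list, had -0.60 ± 0.23.

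**Figure D3:**
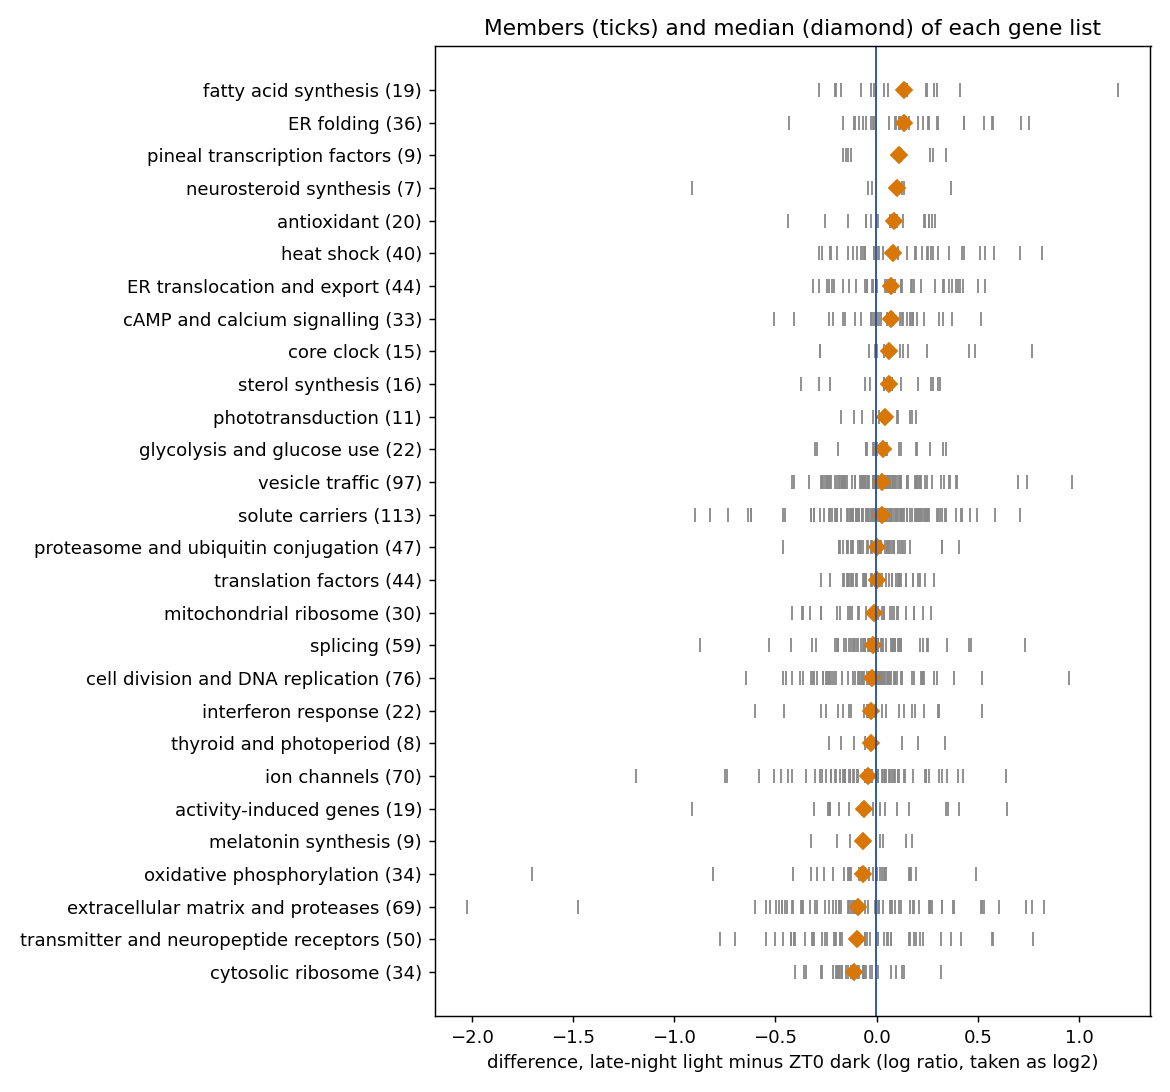
Differences of late-night light minus ZT0 dark (log ratio, taken as log2) for the members of the 28 functional lists, with the number of measured members in brackets. Each grey tick is a gene, the orange diamond is the median of the list, and the blue line is the median of all 12690 genes (-0.0040). Medians run from -0.11 (cytosolic ribosome) to 0.14 (fatty acid synthesis, a list that also holds genes of fatty acid oxidation). Members of single lists spread over much wider ranges.

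Markers of blood and connective tissue cells were lower in light in most members. Of 25 lymphoid markers 4 were higher, with a median of -0.23, and 4 were lower without overlap (16.0%, against 2.19%). The mean ratio of the list was -0.16, -0.11, -0.18 and -0.07 in light pools, against 0.02, -0.02, 0.09 and 0.46 in dark pools. The groups did not overlap, and dark pool 4 was far above the rest: without it the median was -0.10 and 7 members were higher. Lymphoid tissue is known in the pineal of young chickens.

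CXCR4, a chemokine receptor, had -0.61, -0.37, -0.07 and -0.08 in light pools, against 0.09, 0.48, 0.23 and 0.05 in dark pools. CD79B, part of the B cell receptor, had -0.24, -0.27, -0.58 and -0.36 in light pools, against -0.07, -0.15, 0.84 and 1.78 in dark pools. Its difference of -0.96 ± 0.39 was -0.25 in the first series and -1.67 in the second. CD3E, part of the T cell receptor, had -0.49 ± 0.19, and all 4 of its probes were lower.

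Of 21 macrophage markers 3 were higher, with a median of -0.14 and 2 members lower without overlap (9.52%, against 2.19%). The median was -0.06 without dark pool 4 and -0.06 in the first series alone. TIMD4, a receptor of resident macrophages for dying cells, had 0.07, -0.24, -1.16 and -1.42 in light pools, against 0.21, 0.24, 0.52 and 0.25 in dark pools. The light pools were in 2 pairs far apart. Lysozyme (LYZ) had -0.53 ± 0.22, with -0.74 in the first series and 0.13 in the second. The list's mean ran from -0.23 to 0.05 over light pools and from -0.02 to 0.36 over dark pools.

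Of 9 erythroid markers 2 were higher, with a median of -0.28, and HBBA was the 1 member without overlap (11.1%, against 2.19%). Member differences ran from -1.18 to 0.40, and 1 higher and 2 lower members had an unadjusted p under 0.05 in limma. The higher one was CA2 (0.40 ± 0.15), and the lower ones were HBBA and LMO2, which is also in the endothelial list. HBZ, another globin, had -0.02 ± 0.23. The mean ratio of the list was -0.049, -0.022, -0.24 and -0.015 in light pools, against 0.16, 0.054, 0.042 and 0.35 in dark pools. The groups did not overlap in this mean. Fibroblast and meningeal markers had 3 of 19 higher and a median of -0.19, with 2 lower without overlap (10.5%, against 2.19%), COL3A1 as above and the matrix proteoglycan LUM (-0.37 ± 0.16). Both genes and several other members are also in the list of matrix genes and proteases, so the 2 lists are not separate results. Endothelial markers had 4 of 17 higher and a median of -0.10. TEK, the angiopoietin receptor, was the 1 member without overlap (5.88%, against 2.19%), at -0.31 ± 0.11. Mural cell markers (6 of 13 higher, median -0.03) and skeletal muscle markers (6 of 12 higher, median -0.01) stood near 0.

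Markers of choroid plexus and ependyma, the tissues that line the brain ventricles beside the pineal, had higher ratios in most members. Of 20 members 18 were higher, with a median of 0.21, and 3 were higher without overlap (15.0%, against 2.38%). The list also holds OTX2 (0.12 ± 0.17), which is named above as a mark of pineal identity. The median was 0.13 without light pool 3. The mean ratio was -0.03, -0.0044, 0.34 and 0.05 in light pools, against -0.21, 0.01, -0.18 and -0.26 in dark pools. Dark pool 2 was above light pools 1 and 2, so the groups overlapped in the mean. KL, the klotho protein of choroid plexus, had -0.19, 0.43, 1.05 and 0.66 in light pools, against -0.40, 0.0015, -0.47 and -0.37 in dark pools. The genes of motile cilia DNAI1 and SPEF2 had 0.48 ± 0.17 and 0.31 ± 0.11 without overlap, and IGF2 had 0.48 ± 0.18. TRPM3, a cation channel of choroid plexus that is also in the ion channel list, had 0.64 ± 0.24.

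Neuronal markers had 13 of 22 higher and a median of 0.13, with 2 higher and 1 lower without overlap (9.09% and 4.55%, against 2.38% and 2.19%). The median was -0.0011 without light pool 1. DCX, which binds microtubules in young neurons, had 0.45, 0.20, 0.45 and 0.78 in light pools, against -0.42, -0.43, 0.13 and 0.03 in dark pools. MAPT, the microtubule protein tau, had 0.59 ± 0.20, and the presynaptic protein PCLO -0.25 ± 0.10. GAD1, which makes GABA, had -0.68, -0.55, -1.07 and -0.68 in light pools, against 1.92, 0.99, -0.57 and 0.08 in dark pools. Dark pools 1 and 2 of GAD1 stood apart from all others, and its difference was -2.22 in the first series and -0.44 in the second. Glial markers (6 of 14 higher, median -0.05) and oligodendrocyte markers (1 of 7 higher, median -0.20) held no member without overlap. The part of cell makeup in the gene differences above was not tested.

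**Figure D4:**
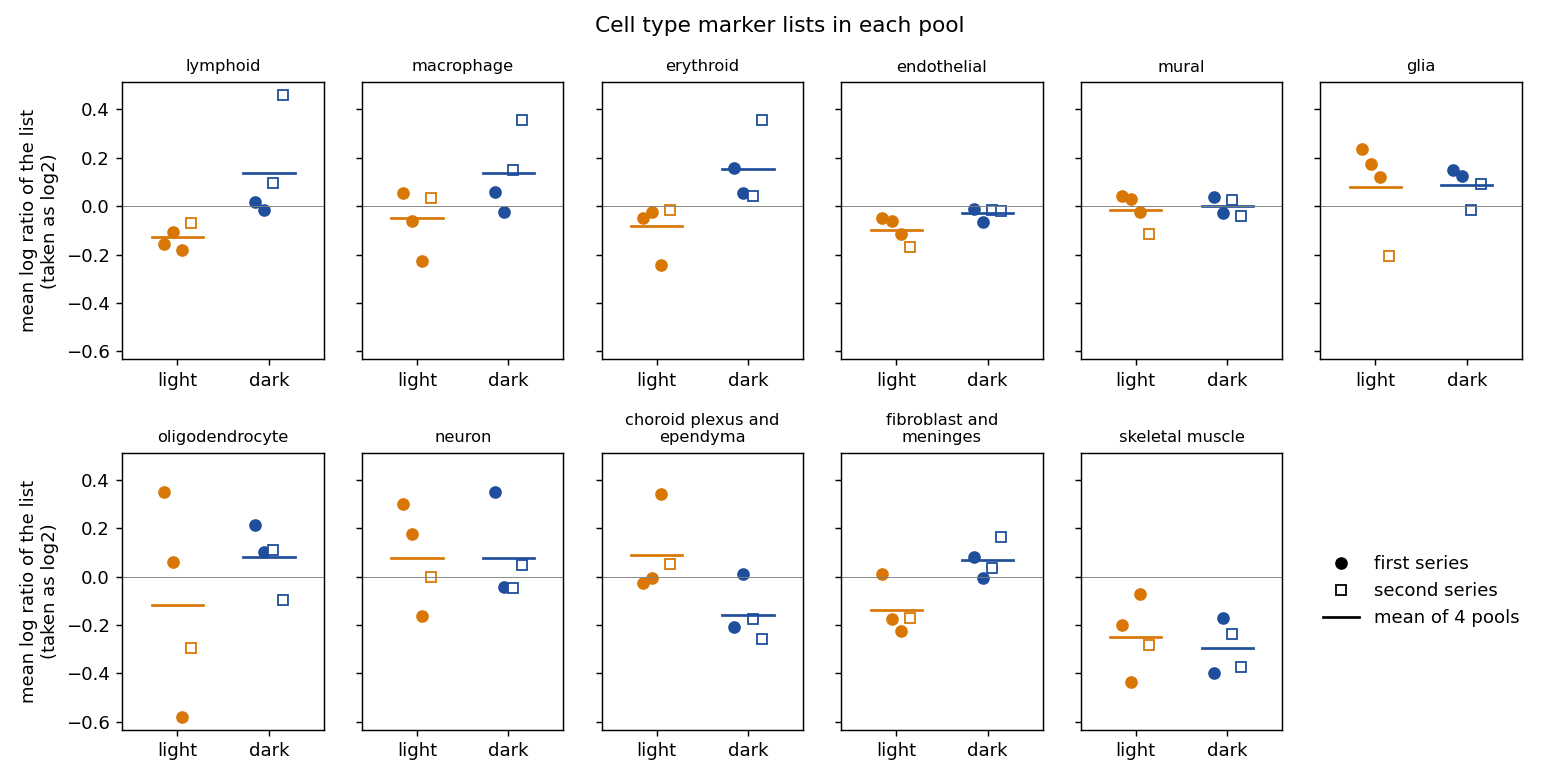
Mean deposited log ratio (taken as log2) of each cell type marker list in each pool, light pools left and dark pools right in every panel. Filled circles are the first array series, open squares the second, and lines the mean of 4 pools. Dark pool 4, the highest open square, stood at 0.46 for the lymphoid list.

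Other birds had 2 h of light at the start of the night, as an extension of their light period. The late-night light instead came after darkness, so the 2 kinds of light differ in more than the hour. Late-night and early-night light were each set against their own dark pools, which the comparisons do not share, and the difference between the effects was tested in limma over 12 arrays. Of 12638 genes 5 (0.0396%) were called, and 819 (6.48%) had an unadjusted p under 0.05. They were LONRF1, BDNF, MACIR, TXN and an unnamed probe, DT40subNB_9B10. The early-night effect alone had 3 called genes (0.0237%) and 803 (6.35%) at an unadjusted p under 0.05 in this fit, with 2 pools a side. All 4 early-night arrays belong to the first array series, within which the late-night differences of LONRF1 and BDNF were 0.84 and -0.82.

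LONRF1 had a difference of 0.91 after late-night light and -1.36 ± 0.18 after early-night light. In the early night its ratios were -0.65 and -0.60 in light pools, against 0.75 and 0.72 in ZT14 dark pools. Light pools lay above dark pools at ZT0 and below them at ZT14. The effects differed by 2.27 ± 0.22 (adjusted p 0.00645).

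BDNF ran the other way, with -0.91 after late-night light and 1.15 ± 0.20 after early-night light. The early-night light pools had -0.12 and -0.33, against -1.24 and -1.51 in ZT14 dark pools. The ratios of the ZT14 dark pools were thus near those of the late-night light pools, and those of the early-night light pools within the range of the ZT0 dark pools. The effects differed by -2.06 ± 0.25 (adjusted p 0.0140).

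MACIR, a regulator of macrophage cytokine release in mammals, had 0.65, 0.64, 0.57 and 0.90 in late-night light pools, against 0.37, 0.11, 0.41 and 0.15 in ZT0 dark pools. In the early night it had 0.30 and 0.15 in light pools, against 1.68 and 1.83 in ZT14 dark pools. Its effects of 0.43 and -1.53 differed by 1.96 ± 0.21 (adjusted p 0.00845). The unnamed probe DT40subNB_9B10 had 0.83 and -1.30, a difference of 2.13 ± 0.27 (adjusted p 0.0203).

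TXN, the disulfide reductase thioredoxin, had almost no late-night difference. After late-night light it had -1.08, -0.77, -0.70 and -1.18 in light pools, against -1.10, -0.92, -0.77 and -0.82 in ZT0 dark pools, a difference of -0.03 ± 0.15 with full overlap. After early-night light it had 0.50 and 0.31 in light pools, against -1.36 and -2.05 in ZT14 dark pools, a difference of 2.11 ± 0.24. The effects differed by -2.13 ± 0.30 (adjusted p 0.0401).

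LONRF1 was called under every alternative run. The calls of the other 4 were lost with a trended, robust prior (adjusted p 0.203 for BDNF and the unnamed probe, 0.211 for MACIR and 0.289 for TXN in limma) and with quantile normalization (0.0711 for BDNF, 0.186 for the unnamed probe, 0.113 for MACIR and 0.200 for TXN). The count of called genes moved between 1 and 5 over other normalizations and priors. It was 76 without ZT14 dark pool 1, 14 without ZT14 dark pool 2, 9 and 8 without early-night light pools 2 and 1, 2 without light pool 2, and 3 without light pool 4, dark pool 1 or dark pool 3. Of the other leading genes none was called for this difference. HSPA5 had 0.75 after late-night and -0.09 ± 0.20 after early-night light (adjusted p of the difference 0.641), and NDUFB2 had -0.81 and 1.17 ± 0.26 (adjusted p 0.139).

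**Figure D5:**
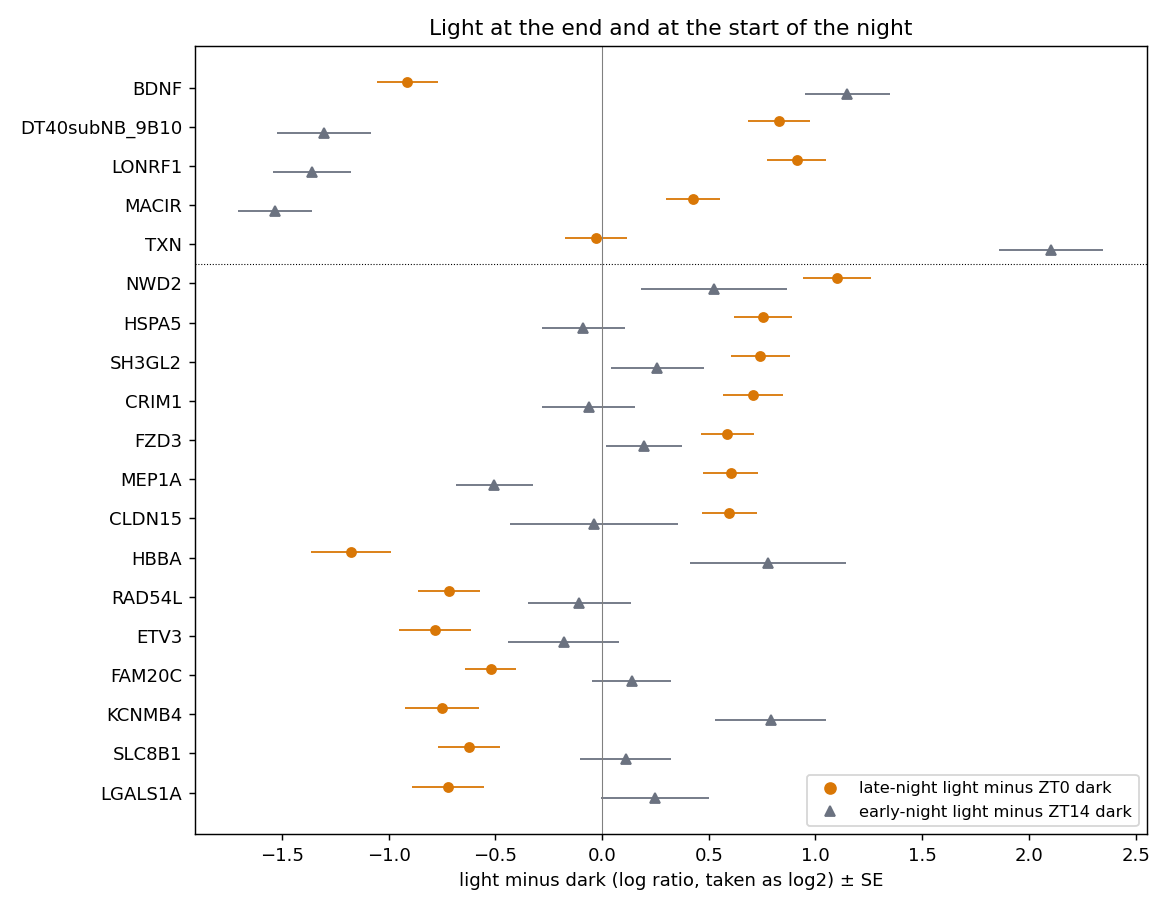
Light minus dark difference (log ratio, taken as log2) with its SE after late-night light (orange circles, fit of 8 arrays, 4 pools a group) and after early-night light (grey triangles, fit of 12 arrays, 2 pools a group). Genes above the dotted line were called for the difference between both effects, and those below it are leading genes of the late-night comparison. LONRF1 and BDNF lie on opposite sides of 0 after the 2 kinds of light.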

How the data were processed

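Pineal RNA of each pool was amplified, labelled and hybridised against an equal mixture of all 16 pools on 2-colour cDNA arrays, with sample and mixture in the same dyes throughout and no dye swap, per the labels' protocols. The values deposited by the authors are log ratios per probe and were taken as log2. For the base of the log, the numerator, the background correction and the normalization, no source used here gives an answer, and no intensities were used, so the number of arrays limits the precision. Array medians of the 8 arrays lay between -0.00827 and 0.0230 and SDs between 0.248 and 0.546, with 15558 to 15603 probes measured. The lowest correlation between any of the 16 arrays was -0.290 over probes.

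The table held 15769 probes, and 160 control spots were left out. Of the rest 9628 had 1 symbol in the platform annotation and 5981 none, and 9486 of 9629 annotated IDs were found in the RefSeq gene table. Probes of 1 symbol were averaged (1918 symbols had more than 1 probe), and 1 gene without 2 values in each group was removed.

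Groups were compared with limma 3.58.1 in R 4.3.3 (lmFit and eBayes, Benjamini-Hochberg adjustment over all genes, called under 0.05). The main fit used the 8 arrays without covariates, and the difference from early-night light a contrast over 12 arrays. The code was tested on simulated data. Genes named are the 14 with a symbol and the smallest p in each direction among those without overlap, the 5 members of each of 39 lists (11 of them cell type markers) with the smallest p, the members of 5 lists in full (core clock, melatonin synthesis, phototransduction, ER folding, heat shock), and genes called for the difference from early-night light. A few other list members are named to show what a list holds. The members and lists were chosen with earlier results of these data known. Percentages without overlap are of members measured on all 8 arrays. Alternatives covered the arrays in the fit, the prior, array weights, normalization, the array series, pool number, averaging of probes, missing values and leaving out each pool.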

Additional observations from a re-analysis of the deposited data

Results flagged for a closer look

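Within groups of 4 pools, 1 pool stood apart from the other 3 by Dixon's ratio in 17 of 234 groups examined for genes. The same held in 3 of 78 groups of list means, and chance gives about 1 in 20 groups. Among light pools, light pool 1 stood apart for SH3GL2 at 0.90 (others 0.47 to 0.49) and for DNAJA1 at 0.23 (0.34 to 0.35), and light pool 2 for USP31 at -0.10 (0.08 to 0.11). Light pool 3 stood apart for CLOCK at -0.17 (-0.51 to -0.47), for RPL27 at -0.67 (-0.08 to -0.03) and for SYF2 at 1.19 (0.20 to 0.30). The same pool stood apart in the mean ratio of 3 lists, at -0.22 for the cytosolic ribosome (0.00027 to 0.033), at 0.14 for translation factors (0.048 to 0.056) and at -0.24 for erythroid markers (-0.049 to -0.015). Light pool 4 stood apart for CHORDC1 at -0.10 (0.54 to 0.63), SQLE at -0.26 (0.33 to 0.44), CRY1 at -1.81 (-0.27 to -0.13), NMB at -0.59 (-0.31 to -0.27) and LUM at -0.48 (-0.19 to -0.13). It is the 1 light pool of the second array series.

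Among dark pools, dark pool 1 stood apart for SRRM1 at 0.26 (others 0.10 to 0.12), dark pool 2 for LGALS1A at 0.057 (0.39 to 0.41), and dark pool 3 for TIMD4 at 0.52 (0.21 to 0.25). Dark pool 4 stood apart for SIL1 at -1.07 (-0.16 to 0.03), STUB1 at -2.02 (0.14 to 0.31) and PCLO at 0.068 (0.18 to 0.19). Without dark pool 4 the difference was 0.31 for SIL1 (0.57 with it) and 0.26 for STUB1 (0.82 with it).

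The effects of late-night and early-night light differed in the test of the difference for LONRF1 (2.27), MACIR (1.96), the unnamed probe DT40subNB_9B10 (2.13), BDNF (-2.06) and TXN (-2.13), each value being the late-night minus the early-night difference. LONRF1 and BDNF were also among the 28 genes that led the late-night comparison, while TXN differed by -0.03 there. The test of the difference contains the late-night difference of the same pools, so genes shared by both are partly built in.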

How the results depend on the processing

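No gene was called for late-night light against ZT0 dark under any alternative run in limma (0 each), while genes at an unadjusted p under 0.05 numbered 527 with all 16 arrays in the fit, 833 in the fit of 8 arrays and 1064 with pool number as a replicate block. The deviations of light and dark pools of the same number correlated at 0.299, 0.181, -0.00243 and 0.309 for pools 1 to 4, and light pools 2 and 3 correlated best with a dark pool of another number. The labels tie no birds or days to the numbers, so the pools were not treated as paired, and with this block 0 genes were called. Genes without overlap numbered 576, and 536 to 577 under other processing. Leaving out 1 pool gave 828 to 1266, since fewer pools have to separate. Of 116 genes followed through the alternatives 103 kept the sign of their difference under all 19. Many of them were named for not overlapping, and the sign of such a gene cannot turn without 1 pool or within 1 array series. For those genes these settings test nothing, and the count is no measure of how firm their differences are. In the first array series alone the difference was -0.11 for HSP90B1, 0.020 for HERPUD1, -0.060 for HSPA8, -0.10 for CRY1 and 0.16 for XBP1. In the second series alone it was -0.073 for FKBP4, -0.099 for SQLE, -0.16 for FDFT1, -0.066 for CLOCK, -0.14 for TPH1, 0.16 for ATP5C1, 0.13 for LYZ and 0.061 for IL6. XBP1 had 0.017 with array weights, 0.035 with quantile normalization, 0.021 with scaled arrays, 0.097 with the series as a block and 0.045 with the median of probes. HERPUD1 had 0.0022 with quantile normalization and 0.032 with scaled arrays. HSPA8 had -0.0031 and -0.018 under the same settings, and -0.044 with array weights. CLOCK had -0.040 with array weights and -0.0019 with the series as a block. Without 1 pool at a time the difference ranged over -0.15 to 0.086 for XBP1, -0.079 to 0.035 for CLOCK and -0.12 to 0.15 for TPH1. Its sign turned without light pool 2, dark pool 3 or dark pool 4 for XBP1, without dark pool 1, light pool 3 or dark pool 4 for CLOCK, and without light pool 1, dark pool 2 or dark pool 4 for TPH1.

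Medians of some lists moved by more than their spread. In the first series the median was 0.069 for melatonin synthesis, -0.13 for neurosteroid synthesis, 0.041 for translation factors, -0.013 for extracellular matrix, -0.14 for erythroid and -0.026 for endothelial genes. In the second series it was -0.31 for pineal transcription factors, 0.020 for activity-induced genes, 0.18 for heat shock, -0.0070 for sterol synthesis, 0.029 for fatty acid synthesis, -0.032 for cytosolic ribosome, -0.049 for glycolysis, -0.091 for proteasome, -0.038 for vesicle traffic, 0.056 for interferon response, 0.10 for thyroid, -0.11 for erythroid, -0.19 for endothelial, -0.19 for mural, -0.28 for glia and -0.092 for neuron genes. With the series as a block it was 0.046 for fatty acid synthesis and 0.027 for translation factors, and with array weights 0.059 for thyroid and -0.15 for erythroid genes. Leaving out 1 pool at a time gave -0.060 to 0.14 for pineal transcription factors, 0.031 to 0.12 for cAMP and calcium, 0.018 to 0.081 for sterol synthesis, 0.047 to 0.093 for fatty acid synthesis, -0.027 to 0.13 for neurosteroid synthesis, -0.16 to -0.057 for cytosolic ribosome, -0.055 to 0.013 for mitochondrial ribosome, -0.020 to 0.028 for translation factors, -0.11 to -0.0029 for respiratory chain, 0.025 to 0.11 for antioxidant, -0.017 to 0.033 for vesicle traffic, -0.068 to 0.051 for interferon response, -0.074 to 0.075 for thyroid, -0.27 to -0.10 for lymphoid, -0.0011 to 0.15 for neuron, 0.11 to 0.15 for ER folding, -0.015 to 0.12 for core clock, -0.22 to -0.061 for macrophage, 0.13 to 0.27 for choroid plexus and ependyma, 0.031 to 0.095 for ER translocation and export, -0.17 to -0.040 for transmitter and neuropeptide receptors and -0.12 to -0.038 for extracellular matrix genes. Without dark pool 4, an alternative chosen after seeing the data, members higher in light numbered 27 for ER folding, 28 for heat shock, 31 for ER translocation and export, 15 for choroid plexus, 7 for lymphoid, 5 for macrophage, 2 for erythroid and 5 for fibroblast lists.

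Genes called for the difference from early-night light numbered 5, and 1 with a trended prior, 1 with quantile normalization and 2 with scaled arrays. They ranged over 2 to 76 without 1 pool, with the most called without ZT14 dark pool 1, where the lone ZT14 dark pool is assumed to vary like the other groups. The causes of these shifts were not tested.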
